A study of Mus musculus with 9 samples.

Results

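Autophagy genes were followed in tumor-infiltrating CD8+ T cells that recognize GSW11, an epitope of the CT26 tumor. The set held 38 mouse genes of the core autophagy machinery, chosen by name, and each was matched to an Ensembl identifier, giving 38 of the 32976 genes in the count tables. CT26 is a colorectal cancer line grown under the skin of BALB/c mice, and the tumors came from wildtype mice that had all received the PD-1 antibody RMP1-14 on days 3, 6 and 9 after implantation. CD8+CD44+ cells were sorted by flow cytometry with a GSW11 tetramer into 3 groups of 3 libraries each, namely high avidity cells from progressing tumors (TetHighProg, replicates 1, 2 and 5), their low avidity counterparts in progressing tumors (TetLowProg, replicates 9, 10 and 12) and in regressing tumors (TetLowReg, replicates 6, 7 and 8). No library came from mice left without the antibody, and none held high avidity cells of regressing tumors, so avidity was compared within progressing tumors and tumor outcome within low avidity cells. The cells came from 3 progressing and 3 regressing tumors, so high and low avidity cells of progressing tumors were drawn from the same tumors. The labels tie no library to a tumor, so libraries were compared as independent samples and the p-values measure the spread between these libraries.

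Autophagy encloses cytoplasm in a double membrane, the autophagosome, and delivers it to the lysosome for breakdown. The ULK1 kinase complex starts the process, the VPS34 complex marks the growing membrane with a phosphoinositide, ATG2, ATG9 and WIPI proteins bring in lipid, and ubiquitin-like conjugation attaches ATG8 proteins (LC3 and GABARAP) to the membrane, where cargo receptors dock. CD8+ T cells use this route to turn over mitochondria and other contents during activation and to survive as memory cells. These are transcript levels only, and flux through the pathway is set largely by phosphorylation and lipidation, which RNA does not record.

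The libraries differed widely in how many genes they held. Totals ran from 16405306 to 36429515 gene counts, yet the number of genes with at least 10 counts, called detected here, ran from 599 to 8071. TetHighProg 1 and 2, TetLowReg 6 and TetLowProg 10 each had at most 1298 detected genes and are called the sparse libraries. The other 5 had over 3000, with 3181 in TetHighProg 5 and 6443 to 8071 in the TetLow libraries among them. Mitochondrial transcripts took 44.5% of the counts in TetLowReg 7 (40.2% on mt-Cytb alone) and 14.2% in TetLowReg 8, against 1.36% to 6.07% in the other 7 libraries, and the nuclear RNA Malat1 took 5.77% to 7.02% in the sparse libraries and 0.304% to 4.27% in the broader ones. Of 10 CD8 T cell markers, 8 to 10 were detected in those 5 libraries and 3 or 4 in the sparse ones, where Cd8a was at 0 in 3 of the 4. Those 3 (TetHighProg 1 and 2 and TetLowProg 10) held 79539, 78155 and 75010 counts of Cd8b1, which encodes the other chain of the CD8 receptor, while TetLowReg 6 held 47022 of Cd8a and 8 of Cd8b1. B cell markers were detected in TetLowReg 7, TetLowReg 8 and TetLowProg 12 (7 of 8 markers in each, 0.104% to 0.195% of counts) and in none of the other 6 libraries. Cd74, the invariant chain of antigen-presenting cells, took 3.43% to 5.17% of counts in those 3 libraries and at most 0.148% in the others. Macrophage and dendritic cell markers were at 5 of 12 in TetLowReg 7 (0.843% of counts, mostly Lyz2) and TetLowReg 8 (0.127%) and at 2 or fewer elsewhere, with C1qa at 0 throughout. In TetHighProg 1 a single marker of that list, Lyz2, made up 0.154% of counts, and in the other 6 libraries the list took at most 0.0621%. Of the tumor and stroma markers, the keratins Krt8, Krt18 and Krt19 were at 0 in all 9 libraries, and the list took at most 0.0372% of counts, in TetHighProg 1, from 12437 counts of the collagen gene Col1a2. The part of these cells in the levels below was not tested, and in bulk RNA fewer expressing cells and less RNA per cell cannot be told apart.

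Detection of the autophagy genes followed the breadth of the library. In TetHighProg, replicate 1 held 5 of the 38 at 10 counts or more, replicate 2 held 0 and replicate 5 held 16. In TetLowReg, replicate 6 held 1, replicate 7 held 25 and replicate 8 held 27. In TetLowProg, replicate 9 held 30, replicate 10 held 5 and replicate 12 held 30. Each group thus contained at least 1 library with 5 or fewer of the genes, and the group means of 7 ± 8.19 (TetHighProg), 17.7 ± 14.5 (TetLowReg) and 21.7 ± 14.4 (TetLowProg, SD, n = 3 each) had overlapping values. Over the 5 broader libraries 128 of 190 gene-library pairs were detected, against 11 of 152 in the sparse ones. Of the 36 genes detected anywhere, 28 (77.8%) were detected only in broader libraries, beside 82.4% of all 13373 genes detected in any library. Atg4c, a protease that trims ATG8 proteins, was at 0 in every library, and Optn, a receptor for mitochondria and bacteria, reached only 3 counts in TetLowReg 8 and 1 in TetLowProg 12. A count of 0 in a library allowed a level of up to 0.0824 to 0.183 CPM (counts scaled to a library total of 1e6) by counting error alone.

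**Figure D1:**
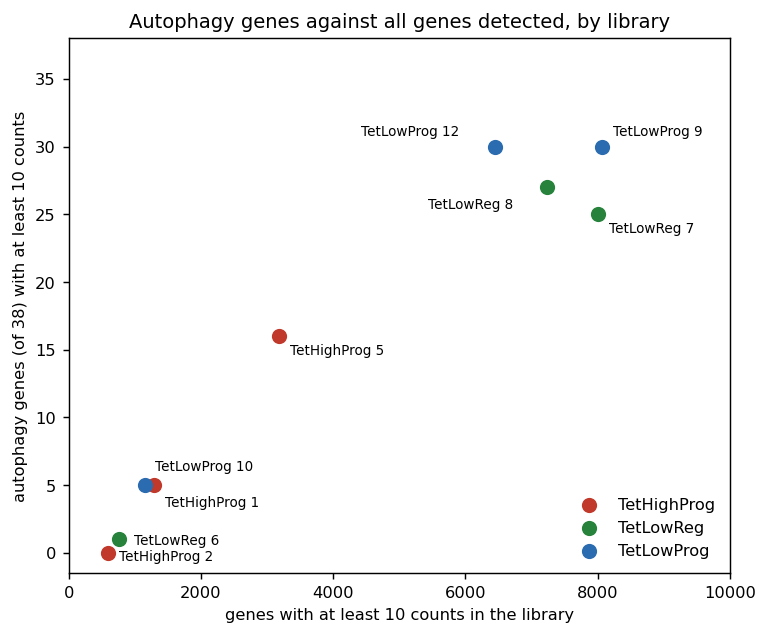
Each point is a library, with the number of genes at 10 counts or more on the horizontal axis and the number of the 38 autophagy genes at 10 counts or more on the vertical axis, colored by group. The 4 libraries with at most 1298 genes held 0 to 5 autophagy genes, TetHighProg 5 held 16 and the 4 broadest TetLow libraries held 25 to 30.

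The share of reads on the autophagy genes varied less than the number of genes. It was 0.481% (95% Clopper-Pearson interval 0.478% to 0.483%) in TetHighProg 1, 7.90e-06% in TetHighProg 2 and 0.375% in TetHighProg 5. It was 0.297%, 0.171% and 0.416% in TetLowReg 6, 7 and 8, and 0.321%, 0.539% and 0.577% in TetLowProg 9, 10 and 12. With mitochondrial counts left out of the total the share in TetLowReg 7 was 0.308% and that in TetLowReg 8 was 0.484%, and the highest was 0.614% in TetLowProg 12. TetHighProg 2 was alone in holding almost no such reads, with 1 count on Wipi2 and 1 on Tax1bp1 among 25323802. In the sparse libraries a few genes carried the share. Atg101 alone gave 65363 counts in TetLowReg 6, and a detected autophagy gene had a median of 27377 counts in TetHighProg 1 and 31765 in TetLowProg 10, against 387 to 2543.5 in the broader libraries. The same split held over all detected genes, with medians of 5733 to 8980 counts in sparse libraries and 212.5 to 1738 in the broader ones.

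**Figure D2:**
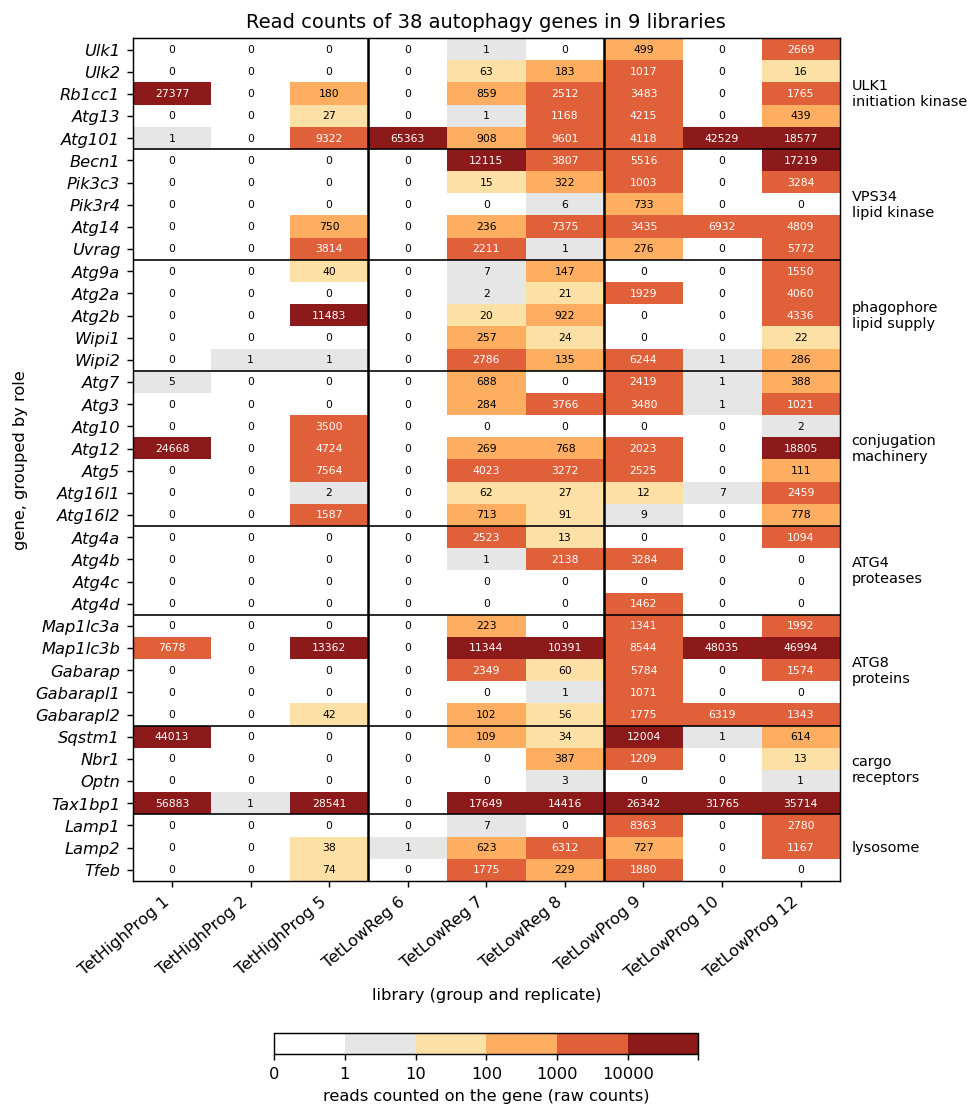
Raw read counts of the 38 autophagy genes (rows, grouped by role) in the 9 libraries (columns, by group), with each count printed and colored by decade. Most rows are filled in the 4 broad TetLow libraries, and TetHighProg 2 and TetLowReg 6 are empty but for Atg101, with 65363 counts, and 3 single reads.

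The initiation complex was the role with the largest share of detected pairs in the broader libraries, at 20 of 25. Atg101, a scaffold that stabilizes Atg13, was the most widely detected of its 5 genes, at 10 counts or more in 7 libraries. It had 1, 0 and 9322 counts in TetHighProg 1, 2 and 5, 65363, 908 and 9601 in TetLowReg 6, 7 and 8, and 4118, 42529 and 18577 in TetLowProg 9, 10 and 12. All 6 TetLow libraries were above the first 2 TetHighProg libraries, while TetHighProg 5 lay within the TetLow range. Rb1cc1 (FIP200), the large scaffold of the complex, had 27377, 0 and 180 counts in TetHighProg, 0, 859 and 2512 in TetLowReg and 3483, 0 and 1765 in TetLowProg, so its highest value was in a sparse high avidity library. Atg13, the regulatory subunit, reached 27 counts in TetHighProg 5, 1168 in TetLowReg 8, 4215 in TetLowProg 9 and 439 in TetLowProg 12, with 1 count or none in the rest. The kinases themselves had counts in low avidity libraries only. Ulk1 had 499 counts in TetLowProg 9, 2669 in TetLowProg 12, 1 in TetLowReg 7 and 0 in the other 6 libraries, and its relative Ulk2 had 63 and 183 counts in TetLowReg 7 and 8 and 1017 and 16 in TetLowProg 9 and 12.

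Within the VPS34 lipid kinase complex, Becn1 was all or none between libraries. Becn1 (beclin 1, chr11:101176769-101193122 of GRCm39, minus strand) scaffolds the complex and is the partner through which BCL2 restrains it. It had 0 counts in all 3 TetHighProg libraries, 0, 12115 and 3807 in TetLowReg 6, 7 and 8, and 5516, 0 and 17219 in TetLowProg 9, 10 and 12. Its zeros were thus shared by 2 low avidity libraries and all high avidity ones. These include TetHighProg 5, which had 3181 detected genes, the fewest of the broader libraries. Of its exon bases 43.8% overlap Cntd1, and reads there were left out as ambiguous. The same limit applies to Atg13 (33.1% of exon bases shared), Gabarapl1 (31.0%), Atg4d (30.2%), Sqstm1 (18.9%), Atg9a (12.7%) and Atg3 (10.8%), and apart from Lamp1 the other autophagy genes shared at most 4.32%. Pik3c3, the lipid kinase VPS34 itself, followed the same libraries at lower counts (15 and 322 in TetLowReg 7 and 8, 1003 and 3284 in TetLowProg 9 and 12, 0 elsewhere), and its regulatory subunit Pik3r4 was detected in TetLowProg 9 only, with 733 counts. Atg14, which targets the complex to autophagosome formation sites, had 0, 0 and 750 counts in TetHighProg, 0, 236 and 7375 in TetLowReg and 3435, 6932 and 4809 in TetLowProg. All 3 TetLowProg libraries lay above all 3 TetHighProg ones, with TetLowReg spread across both. Uvrag, the endosomal counterpart of Atg14, was at 3814 counts in TetHighProg 5, 2211 in TetLowReg 7, 276 in TetLowProg 9 and 5772 in TetLowProg 12.

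Genes for lipid supply to the phagophore were absent from all 4 sparse libraries at 10 counts. Atg2b, which with its relative Atg2a transfers lipid between membranes, had its highest value in TetHighProg 5 (11483 counts), then 4336 in TetLowProg 12, 922 in TetLowReg 8 and 20 in TetLowReg 7. Atg2a had 0 counts in all TetHighProg libraries, 2 and 21 in TetLowReg 7 and 8, and 1929 and 4060 in TetLowProg 9 and 12. Each of these paralogs was thus at 0 in a library where the other was high, Atg2a in TetHighProg 5 and Atg2b in TetLowProg 9. In TetLowProg 12 both were high. Atg9a, the lipid scramblase of the seed vesicles, ran from 40 counts in TetHighProg 5 through 147 in TetLowReg 8 to 1550 in TetLowProg 12. Wipi2, the reader of the VPS34 lipid that recruits Atg16l1, had 2786 and 135 counts in TetLowReg 7 and 8 and 6244 and 286 in TetLowProg 9 and 12, against 0, 1 and 1 in TetHighProg. Wipi1 was low, at 257, 24 and 22 counts in TetLowReg 7, TetLowReg 8 and TetLowProg 12, and 0 elsewhere.

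Among the 7 genes of the conjugation machinery, 4 were detected in TetHighProg 5 and 5 or 6 in each of the 4 broad TetLow libraries. Atg12, the ubiquitin-like protein joined to Atg5, had 24668, 0 and 4724 counts in TetHighProg, 0, 269 and 768 in TetLowReg and 2023, 0 and 18805 in TetLowProg. Atg5 had 7564 counts in TetHighProg 5, 4023 and 3272 in TetLowReg 7 and 8, and 2525 and 111 in TetLowProg 9 and 12, and was at 0 in the sparse libraries. Both partners were thus present in all 5 broader libraries, and Atg5 had its highest CPM in TetHighProg 5. Atg3, the E2-like enzyme that hands ATG8 proteins to lipid (chr16:44978748-45008901, plus strand), had 0 counts in every TetHighProg library, 0, 284 and 3766 in TetLowReg and 3480, 1 and 1021 in TetLowProg. Atg7, the E1-like enzyme, reached 688 counts in TetLowReg 7, 2419 in TetLowProg 9 and 388 in TetLowProg 12, with 5 in TetHighProg 1. Atg10, the E2-like enzyme for Atg12, was detected only in TetHighProg 5, at 3500 counts, and had 2 counts in TetLowProg 12 and none in the rest. Atg16l1, which places the conjugate on the membrane, had 2 counts in TetHighProg 5, 62 and 27 in TetLowReg 7 and 8, and 12, 7 and 2459 in TetLowProg 9, 10 and 12. Its relative Atg16l2 had 1587 counts in TetHighProg 5, 713 and 91 in TetLowReg 7 and 8, and 9 and 778 in TetLowProg 9 and 12.

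The ATG4 proteases, which prime ATG8 proteins and release them from lipid, were the least detected role, at 6 of 20 pairs in the broader libraries and 0 of 16 in the sparse ones. Atg4b had 2138 counts in TetLowReg 8, 3284 in TetLowProg 9 and 1 in TetLowReg 7. Atg4a had 2523 counts in TetLowReg 7, 13 in TetLowReg 8 and 1094 in TetLowProg 12. Atg4d was found in TetLowProg 9 alone, at 1462 counts. No ATG4 gene had a count in any TetHighProg library. All 4 were at 0 in the 4 sparse libraries as well.

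Map1lc3b led the ATG8 proteins. Map1lc3b (LC3B, chr8:122317100-122325499, plus strand), the family member used most as a marker of autophagosomes, had 7678, 0 and 13362 counts in TetHighProg, 0, 11344 and 10391 in TetLowReg and 8544, 48035 and 46994 in TetLowProg. Its mean level was 273 ± 297 CPM in TetHighProg, 315 ± 317 in TetLowReg and 1213 ± 872 in TetLowProg (SD, n = 3 each), with TetLowProg 9 inside the range of the other groups. It was absent from TetHighProg 2 and TetLowReg 6, the libraries with the fewest detected genes. Gabarap had 0 counts in all of TetHighProg, 0, 2349 and 60 in TetLowReg and 5784, 0 and 1574 in TetLowProg. Gabarapl2 (GATE-16, chr8:112667322-112682011, plus strand) is a family member that also acts in Golgi transport. It had 0, 0 and 42 counts in TetHighProg, 0, 102 and 56 in TetLowReg and 1775, 6319 and 1343 in TetLowProg. All 3 TetLowProg libraries, the sparse one included, exceeded all 6 others. TetLowProg libraries were separate, in either direction, from those of TetHighProg for 7.17% of all genes tested and from those of TetLowReg for 3.42%. The share separate from both was not counted. Map1lc3a was at 223 counts in TetLowReg 7, 1341 in TetLowProg 9 and 1992 in TetLowProg 12 and at 0 elsewhere, and Gabarapl1 had 1071 counts in TetLowProg 9 and a single read in TetLowReg 8.

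Tax1bp1 was the most even of the cargo receptors. Tax1bp1 (chr6:52690676-52745153, plus strand) brings ubiquitinated cargo to autophagosomes and also restrains inflammatory NF-κB signaling. It had 56883, 1 and 28541 counts in TetHighProg, 0, 17649 and 14416 in TetLowReg and 26342, 31765 and 35714 in TetLowProg, or 987 ± 883, 454 ± 440 and 1041 ± 281 CPM (SD, n = 3 each). In the 7 libraries where it was detected, TetLowProg overlapped both other groups in CPM, while the 2 TetHighProg values lay above the 2 TetLowReg ones. Sqstm1 (p62, chr11:50089572-50107684, minus strand), the receptor that is itself degraded by autophagy, was uneven, with 44013, 0 and 0 counts in TetHighProg, 0, 109 and 34 in TetLowReg and 12004, 1 and 614 in TetLowProg. Its TetHighProg mean of 439 ± 761 CPM rested on a single library. Nbr1, a receptor related to p62, had 387 counts in TetLowReg 8, 1209 in TetLowProg 9 and 13 in TetLowProg 12.

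**Figure D3:**
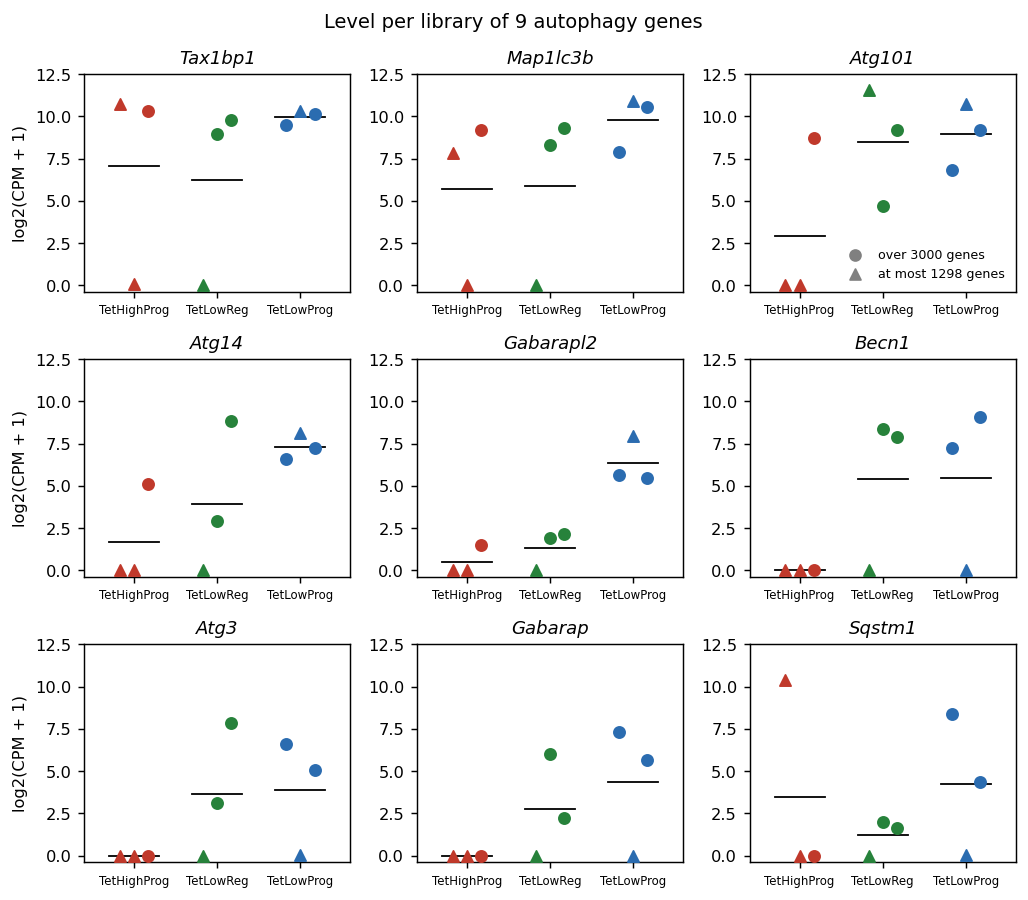
Level of 9 autophagy genes as log2(CPM + 1) in each library by group. Circles are libraries with over 3000 detected genes, triangles those with at most 1298, and the line is the mean of log2 values over the 3 libraries. Gabarapl2 lies higher in all 3 TetLowProg libraries than in the other 6, while Becn1 and Gabarap lie at 0 in all TetHighProg libraries and in 1 library of each TetLow group.

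Of the 3 lysosomal genes, none reached 10 counts in a sparse library. Lamp2, a lysosomal membrane protein with an isoform for chaperone-mediated autophagy, was present in all 5 broader libraries, at 38 counts in TetHighProg 5, 623 and 6312 in TetLowReg 7 and 8, and 727 and 1167 in TetLowProg 9 and 12. Tfeb, the transcription factor that drives lysosomal and autophagy genes, had 74 counts in TetHighProg 5, 1775 and 229 in TetLowReg 7 and 8, 1880 in TetLowProg 9 and 0 in TetLowProg 12. Lamp1 is an abundant lysosomal membrane protein that appears on the surface of degranulating T cells. It had 8363 counts in TetLowProg 9, 2780 in TetLowProg 12, 7 in TetLowReg 7 and 0 in the rest, TetLowProg 10 included. Of Lamp1 exon bases 49.2% overlap Grtp1, so part of its reads was left out.

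TFEB and related factors bind E-box sequences, and the promoters were searched for the core CACGTG, which reads the same on both strands, from 250 bases before to 50 after the RefSeq start on GRCm38.p6. A promoter was found for 32 of the 38 genes. The core was present in 5 of them (15.6%), against 8.09% of 27025 promoters of the same length. Lamp1 held 4 copies, and 4 or more were found in 6 genes, Lamp1 included, or 0.0222% of promoters. The stretch of the Lamp1 promoter with all 4 copies (chr8:13159081-13159160, plus strand) is shown because it is the densest of the set, with the core in capitals.
Lamp1: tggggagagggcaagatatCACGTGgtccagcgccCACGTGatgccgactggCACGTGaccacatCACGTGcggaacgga
The other matches, 24 bases each around the core, belong to Atg3 at 94 and 71 bases before the start (chr16:45158726-45158749 and chr16:45158749-45158772, plus strand), Atg5 at 14 (chr10:44268316-44268339, plus strand), Atg7 at 132 (chr6:114670955-114670978, plus strand) and Atg14 at 1 (chr14:47568421-47568444, minus strand). They are shown for comparison with Lamp1.
Atg3, distal: tccttttgtCACGTGtcctgggag
Atg3, proximal: gagtcgagtCACGTGaggccttag
Atg5: agcgcttgcCACGTGgtcttggtg
Atg7: attggtggtCACGTGtgcagtaag
Atg14: acaaaatccCACGTGactggccct
The 5 genes did not share a pattern of libraries. Lamp1 was detected in 2 libraries, Atg7 in 3, Atg3 in 4, Atg5 in 5 and Atg14 in 6, and Tfeb itself was at 0 in TetLowProg 12, where all 5 were detected. A match is a description of the sequence, and binding was not measured.

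Levels can be set against each other only per length, and this was done in CPM per kb of exon over the 5 broader libraries. Atg101 had the highest median at 195.8 (11.9 to 281), followed by Map1lc3b at 77.3 (30.9 to 196) and Tax1bp1 at 75.7 (41.8 to 108). These 3 ranges overlapped, so their order was not fixed by these libraries. Becn1 (median 31.5, range 0 to 74.2), Atg5 (26.8, 0.854 to 80.8), Gabarap (22.1, 0 to 70.5) and Atg14 (19.0, 1.31 to 90.6) came next and also overlapped. Exon lengths include bases shared with other genes, where reads were left out. Levels of genes with many such bases, as in Becn1 (43.8%) and Lamp1 (49.2%), may thus be too low. In all, 19 genes had a median above 1 CPM per kb and 6 had a median of 0, and 24 were at 0 in at least 1 of the 5 libraries.

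**Figure D4:**
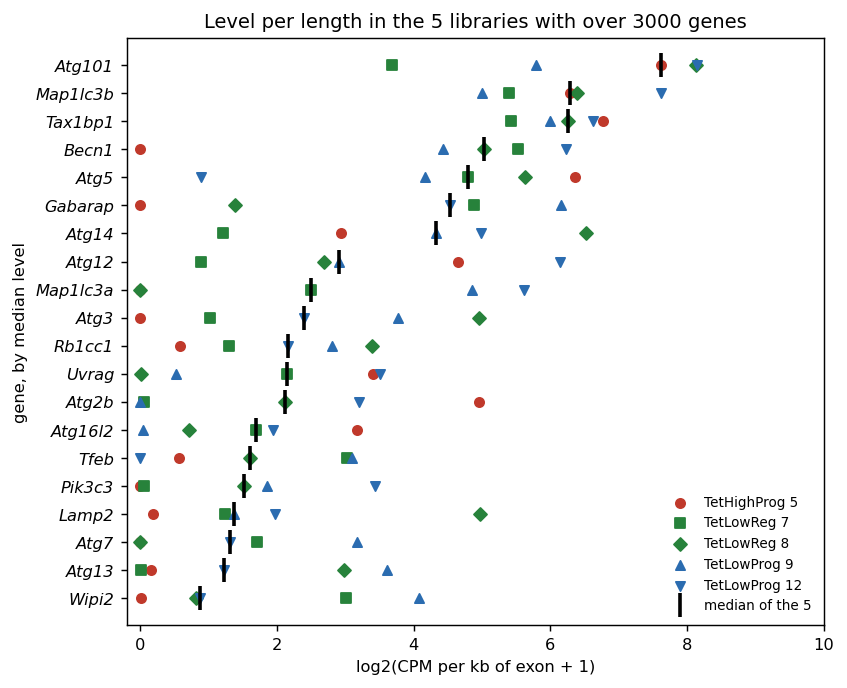
Level per length, as log2(CPM per kb of exon + 1), of the 20 autophagy genes with the highest median over the 5 libraries with over 3000 detected genes. Symbols are libraries and the vertical tick is the median of the 5. Atg101, Map1lc3b and Tax1bp1 have the highest medians and are present in all 5.

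The libraries in which a gene was detected recurred among the 38. A set of 7 genes (Ulk2, Becn1, Pik3c3, Wipi2, Atg3, Atg16l1 and Gabarap) was at 10 counts or more in TetLowReg 7, TetLowReg 8, TetLowProg 9 and TetLowProg 12 and in no other library, a pattern held by 975 of all genes. Ulk1 and Lamp1 were detected in TetLowProg 9 and 12 alone, as were 447 genes, and Pik3r4, Atg4d and Gabarapl1 in TetLowProg 9 alone, as were 1325. Wipi1 and Atg4a were detected in exactly the 3 libraries with B cell markers, a pattern of 259 genes. The cells were sorted on CD8 and the tetramer, and the part of B cells in those values was not tested. In the other direction, 18 of the 38 genes were at 0 in all TetHighProg libraries. Of the 36 detected in any library this was so for 16 (44.4%), beside 8126 of 13373 genes (60.8%). Of the autophagy genes detected in TetHighProg, 12 were detected in TetHighProg 5 alone. Only Rb1cc1, Atg12, Map1lc3b and Tax1bp1 were detected in both TetHighProg 1 and 5.

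Which genes could be compared depended on the group that held them. The filter on low counts asks for reads in at least 3 libraries. Of 9656 genes detected in TetLow libraries alone 2709 passed it (28.1%), and of 258 detected in TetHighProg alone 0 passed. Among the autophagy genes 13 of the 19 detected in TetLow alone passed, and Atg10, detected in TetHighProg alone, did not. The counts of higher and lower genes and the medians below, for the autophagy genes and for all genes, therefore describe the genes that passed and are no support for a direction.

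The first comparison set low avidity cells of regressing tumors against high avidity cells of progressing tumors, a contrast in which avidity and outcome differ together. In TetLowReg, 22 of the 29 autophagy genes that passed the filter on low counts had a higher fitted level and 7 a lower one (75.9% higher, beside 72.7% of all 5813 genes tested). The median log2 fold change of the autophagy genes was 4.28, beside 3.52 over all genes. It was 1.79 beside 2.23 without TetLowReg 8, and 0.56 beside 0.35 in a fit of these 2 groups alone, which kept 13 of the genes. The gap between the median of the autophagy genes and that of all genes ran from -0.45 (without TetLowReg 8) to 2.17 (DESeq2 with default size factors and no filter, 5.60 beside 3.43) over the alternatives. No autophagy gene was called by edgeR (adjusted p under 0.05 with a log2 fold change beyond 2 in size), as was the case for 0% of all genes, and the smallest adjusted p was 0.233. At an unadjusted p under 0.05, 7 genes were higher (Ulk2, Becn1, Wipi1, Atg3, Atg4a, Gabarap and Nbr1, 24.1% of those tested), beside a background of 19.0% of all genes, and 0 were lower. All 7 were at 0 in every TetHighProg library and passed the filter through TetLow libraries alone. DESeq2 on these 2 groups alone called 4 of 15 autophagy genes it tested (Becn1, Wipi2, Atg3 and Gabarap), all higher, beside 28.0% of all genes. Becn1 had the smallest p, with 188 ± 171 CPM against 0 and at least 5771-fold higher when 3 counts are allowed over the TetHighProg group, yet its fitted log2 fold change of 11.95 had an SE of 4.78 (edgeR adjusted p = 0.233, exact permutation p = 0.4, two-sided). These lower bounds are ratios of summed counts over library totals and cover counting error only, whereas the fitted log2 fold change adds a prior count to each library and rescales the totals by TMM, so for a gene at 0 in one group it depends on the prior count and is another quantity. Atg3 was at least 1468-fold higher (log2 10.36, SE 5.02) and Wipi1 at least 102-fold higher (log2 6.05, SE 2.95), each with the same edgeR adjusted p and TetLowReg 6 at 0. Without TetLowReg 7 the fitted value was 10.77 for Becn1 and 3.58 for Wipi1, and without TetLowReg 8 it was 6.65 for Atg3. No autophagy gene had groups that did not overlap, beside 5.80% of all genes.

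The second comparison held tumor outcome constant and set low against high avidity cells of progressing tumors. In TetLowProg, 22 of 29 genes had a higher fitted level (75.9%, beside 73.5% of all genes), with a median log2 fold change of 4.92 beside 4.27 over all genes. In a fit of these 2 groups alone, which kept 12 of the genes, the median was 1.45 beside 0.76, and without TetHighProg 5 it was 7.87 beside 6.85. The autophagy genes lay further above all genes without TetLowProg 9 (4.11 beside 1.73), in the 5 broader libraries (6.83 beside 3.17, with TetHighProg 5 alone in its group), with no filter on low counts (5.90 beside 0.18, over 37 and 17615 genes) and under DESeq2 with default size factors (8.03 beside 0.83, over the same genes). The gap ran from 0.43 to 7.20 over the alternatives. edgeR called 0 autophagy genes and 0% of all genes, with a smallest adjusted p of 0.193. At an unadjusted p under 0.05 it had 7 higher (Ulk2, Becn1, Pik3c3, Atg2a, Map1lc3a, Gabarap and Nbr1, 24.1%) and 0 lower, beside 24.8% of all genes that were higher. These 7 were at 0 in every TetHighProg library and passed the filter through TetLow libraries alone. DESeq2 on these groups alone called 11 of 20 genes tested, all higher (Ulk1, Becn1, Pik3c3, Atg2a, Wipi2, Atg7, Atg3, Map1lc3a, Gabarap, Gabarapl2 and Lamp1), beside 40.5% of all genes. For 4 autophagy genes (13.8%) every TetLowProg library exceeded every TetHighProg one, beside 7.17% of all genes separate in either direction.

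Those 4 genes were Atg14, Gabarapl2, Atg3 and Atg16l1, each with an exact permutation p of 0.1, the smallest that 3 libraries against 3 allow. Atg14 was at 174 ± 92.5 CPM in TetLowProg and 11.0 ± 19.1 in TetHighProg (log2 4.10, SE 4.49, edgeR adjusted p = 0.618). Gabarapl2 was at 114 ± 119 against 0.617 ± 1.07 CPM (log2 7.49, SE 5.64, edgeR adjusted p = 0.374). In both genes every TetLowProg library held over 1000 reads, and without TetHighProg 5 the fitted log2 values were 11.14 and 10.57. They were 3.46 and 5.89 without TetLowProg 10, and 1.92 and 4.49 in the 5 broader libraries. For Atg3, at least 1314-fold higher (log2 8.74, SE 4.51, edgeR adjusted p = 0.193), it rested on a single read in TetLowProg 10. For Atg16l1 the ratio of summed levels was 1085 (95% counting interval 300.0 to 8964, log2 8.04, SE 4.77, edgeR adjusted p = 0.230), with 7 reads in TetLowProg 10 against 2 in TetHighProg 5. Of its 2478 TetLowProg reads 2459 were in TetLowProg 12, and without that library its log2 fold change was 1.80. The smallest p-values belonged to Becn1 (at least 6636-fold higher, log2 11.51, SE 4.67), Map1lc3a (at least 973-fold, log2 8.62, SE 4.19) and Atg2a (at least 1748-fold, log2 9.53, SE 4.63), each with an edgeR adjusted p of 0.193 and with TetLowProg 10 at 0. Without TetLowProg 12 the fitted values were 9.72 for Becn1, 7.68 for Map1lc3a and 8.21 for Atg2a, and without TetLowProg 9 that of Atg3 was 7.70.

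The third comparison set low avidity cells of progressing against regressing tumors. The autophagy genes were split, with 16 higher in TetLowProg and 13 lower (55.2% higher, beside 55.5% of all genes), and a median log2 difference of 0.17 beside 0.35. This median moved with the scaling, to 1.23 beside 1.23 with library size and 1.51 beside 1.41 with DESeq2 size factors in place of TMM. Over the 37 genes with no filter on low counts it was 1.66 beside -0.08 under DESeq2 with default size factors, 0.48 beside -1.81 with size factors from positive counts (poscounts) and 1.23 beside -0.55 on the groups alone. The gap to all genes ran from -0.20 to 2.29 over the alternatives. edgeR called none of them, nor any other gene (0%), and at an unadjusted p under 0.05 it had 0 autophagy genes, beside 0.430% of all genes that were higher. DESeq2 on these groups alone called 0 of 23, beside 0.105% of all genes (5 of 4765). Gabarapl2 was the only autophagy gene whose libraries did not overlap, beside 3.42% of all genes, at 114 ± 119 CPM in TetLowProg and 2.07 ± 1.82 in TetLowReg (log2 5.12, SE 5.12, edgeR adjusted p = 1.0, exact permutation p = 0.1). Without TetLowProg 10 its log2 difference was 3.51, and in the 5 broader libraries 3.06. The smallest p-values were for Atg2a (log2 6.45, SE 5.24) and Sqstm1 (log2 4.86, SE 4.29), both higher in TetLowProg, and Wipi1 (log2 -3.99, SE 3.76), lower there, all at an edgeR adjusted p of 1.0. Without TetLowProg 9 the value for Sqstm1 was 1.94, without TetLowProg 12 that for Atg2a was 5.32, and without TetLowReg 7 that for Wipi1 was -1.47. Standard errors of this size leave differences of many fold in either direction undetectable.

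With all 6 low avidity libraries set against the 3 TetHighProg libraries, 21 of 29 genes were higher and 8 lower (72.4% higher, beside 72.6% of all genes). The median log2 fold change was 4.93 as fitted, beside 4.29 over all genes, and the gap ran from 0.33 to 3.96 (6.97 beside 3.01, DESeq2 with default size factors) over the alternatives. With genes at 0 in TetHighProg placed at their lower bounds it was 5.61, beside 4.56 over all genes placed the same way. In the first and the second comparison this left the autophagy medians at 4.28 and 4.92 and moved those of all genes to 3.62 and 4.56. edgeR called 0 autophagy genes, beside 0.0172% of all genes (1 gene), and had 7 higher at an unadjusted p under 0.05 (Ulk2, Becn1, Pik3c3, Atg3, Atg4a, Gabarap and Nbr1), beside 24.4%. Those 7 were likewise at 0 in every TetHighProg library and passed the filter through TetLow libraries alone. DESeq2 called 17 of 30 tested, all higher, beside 51.3% of all genes. The libraries did not overlap for 0 autophagy genes, beside 1.14%. Becn1 was at least 6250-fold higher (log2 11.73, SE 4.68, exact permutation p = 0.238), Atg3 at least 1383-fold (log2 9.55, SE 4.72, exact permutation p = 0.0952) and Gabarap at least 1579-fold (log2 9.26, SE 4.60, exact permutation p = 0.238), each at an edgeR adjusted p of 0.181. The fitted values were 10.79 for Becn1 without TetLowProg 12, 7.87 for Atg3 without TetLowReg 8 and 7.30 for Gabarap without TetLowReg 7. All comparisons but the third share the TetHighProg libraries, 2 of which were sparse, so they are not independent of one another.

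**Figure D5:**
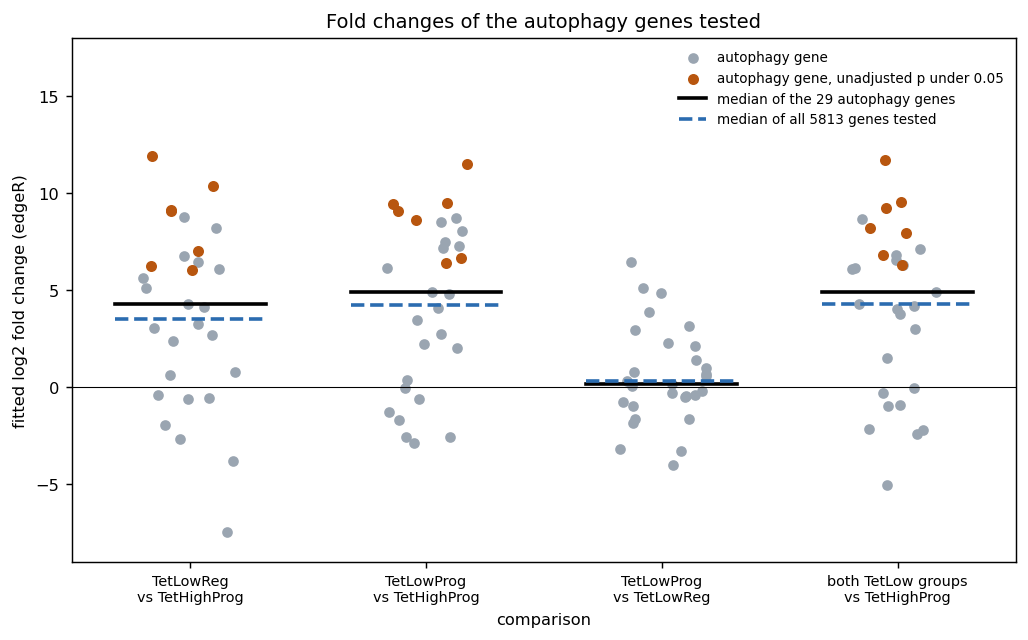
Fitted log2 fold changes (edgeR) of the 29 autophagy genes tested in 4 comparisons. Points are genes, orange where the unadjusted p was under 0.05, the solid line is their median and the dashed line the median of all 5813 genes tested. Both medians lie well above 0 against TetHighProg (4.28 beside 3.52 for TetLowReg, 4.92 beside 4.27 for TetLowProg) and near 0 between the TetLow groups.

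Other genes of the pathway were counted in 4 lists. None of them was called by edgeR in any of the 4 comparisons. Their counts at an unadjusted p under 0.05 stand beside the backgrounds given above, 19.0% of all genes higher in TetLowReg and 24.8% in TetLowProg against TetHighProg. Of the mTORC1 and AMPK regulators, which restrain and trigger the ULK1 complex, 16 of 29 were tested, and 1 (6.25%) was higher in TetLowReg and 6 (37.5%) in TetLowProg. Of other autophagosome formation and fusion factors, 12 of 22 were tested, with 1 (8.33%) and 6 (50%) higher. Of mitophagy and other selective receptors, 10 of 14 were tested, with 3 (30.0%) and 5 (50%) higher. Of lysosomal hydrolases and proton pump subunits, 28 of 36 were tested, with 10 (35.7%) and 12 (42.9%) higher. With both TetLow groups against TetHighProg the numbers were 3, 3, 5 and 12 in the order above, beside 24.4% of all genes, and 1 lysosomal gene was lower. In TetLowProg against TetLowReg the number was 0 in each of the lists, beside 0.430% of all genes.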

How the data were processed

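The authors sorted cells by tetramer, made full-length cDNA with Smart-seq2 (22 cycles of amplification per the labels) and deposited 1 table of raw read counts per library. The submitters' notes name STAR 2.7.6a, featureCounts and the build GRCm39. The tables have the layout of STAR's own gene counts, with multimapping and ambiguous reads in rows apart, so which program counted the reads is uncertain. The annotation release is not given in the sources used here. Smart-seq2 adds no molecular tags, so counts include PCR copies, and intervals cover counting error only. Reads at several places or on overlapping genes are in no gene's count. The unstranded counts were used as deposited. Gene names, coordinates and exon lengths came from GENCODE M39 (28645 of 32976 identifiers matched), and promoters from RefSeq.

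Reads per library ran from 39215685 to 76072023, with 40.1% to 59.7% on genes. The 38 genes, their roles and the other lists were chosen with earlier results of these data known. Genes were tested over the whole table with edgeR 4.0.16 in R 4.3.3 (quasi-likelihood, TMM, default filter on low counts, prior count 2, 3 groups in 1 model, Benjamini-Hochberg). A gene was called where its adjusted p was under 0.05 and its log2 fold change beyond 2 in size. SE is the log2 fold change over the root of F. Alternatives were DESeq2 1.42.0, limma 3.58.1 (voom with quality weights), other scalings and filters, fits on the groups compared alone or on the 5 broader libraries, and each library left out. Single genes were compared on CPM by exact permutation tests, two-sided. Fold changes are printed for the genes whose groups did not overlap and the 3 with the smallest p in each comparison. Python 3.11.15, pandas 2.3.3, SciPy 1.17.1 and matplotlib 3.10.9 were used.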

Additional observations from a re-analysis of the deposited data

How the results depend on the processing

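The number of autophagy genes called depended on the tool. Under edgeR it was 0 in all 4 comparisons with every scaling, filter, threshold, choice of libraries and left-out library that was run. For TetLowReg against TetHighProg it was 7 under DESeq2 with default size factors, 5 with poscounts, 4 on those groups alone and 13 under limma-voom (31.8%, 22.7%, 26.7% and 44.8% of the autophagy genes given an adjusted p), beside 31.6%, 24.4%, 28.4% and 41.5% of all genes called in either direction. For TetLowProg against TetHighProg it was 11, 4, 11 and 16 (50%, 18.2%, 55% and 55.2%), beside 40.4%, 19.6%, 40.6% and 49.9%. For both TetLow groups it was 10, 6, 17 and 25 (45.5%, 27.3%, 56.7% and 86.2%), beside 40.8%, 28.6%, 51.4% and 68.2%. It was 0 for TetLowProg against TetLowReg under each tool, beside 0.919%, 0.405%, 0.105% and 0%. The cause was not tested. No paired analysis was possible because the groups share no replicate number and the labels link no TetHighProg library to a TetLowProg library of the same tumor.

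Without TMM the median log2 over all genes in TetLowReg against TetHighProg moved from 3.52 to 3.05 (library size) or 3.27 (DESeq2 size factors), and that of the autophagy genes from 4.28 to 3.79 or 3.96. With a library left out the autophagy median against TetHighProg ranged from 1.79 beside 2.23 over all genes (without TetLowReg 8) to 6.82 beside 5.80 (without TetHighProg 5) for TetLowReg, from 4.08 beside 3.11 (without TetLowProg 12) to 7.87 beside 6.85 (without TetHighProg 5) for TetLowProg and from 4.30 beside 3.08 (without TetLowProg 9) to 7.21 beside 5.91 (without TetHighProg 5) for both. With the strict filter on low counts, which kept 5 autophagy genes and 1290 genes in all, it was 2.16 beside 0.63, 2.51 beside 1.05 and 2.6 beside 0.79. In TetLowProg against TetLowReg the autophagy median of 0.17 ranged from -0.083 to 2.33 (beside 1.43, without TetLowReg 8) when a library was left out, reversed at -0.0080 beside -0.18 without TetLowReg 6, -0.016 beside -0.63 without TetLowProg 9 and -0.083 beside 0.051 without TetLowProg 12. The number of genes detected per library was 4.00 higher in TetLowProg than in TetLowReg, with a range of -4.33 (without TetLowReg 6) to 12.3 (without TetLowProg 10), and was -0.167 without TetLowProg 9 or 12. In the 5 broader libraries, a choice added after seeing the data, the difference was 4.00. After thinning all libraries to the lowest total it was 3.33, at a minimum of 1 count 3.00 and at a minimum of 100 counts 6.67. The adjusted p of Becn1 in TetLowReg against TetHighProg ranged from 8.42e-12 to 0.477 over the alternatives, and that of Gabarapl2 in TetLowProg against TetLowReg from 0.251 to 1.0.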

Other observations

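The 101 genes of the 4 other pathway lists were detected in 297 of 505 gene-library pairs in the broader libraries and 29 of 404 in the sparse ones. The 3 genes with the highest summed counts of each list are given here. Among the mTORC1 and AMPK regulators, Lamtor1, a subunit of the complex that holds mTORC1 at the lysosome, had 85182 counts in TetHighProg 2, 1764 in TetLowProg 9 and 2 or fewer in the other 7 libraries. Foxo3, a transcription factor that induces autophagy genes, was at 1915, 0 and 11034 counts in TetHighProg, 38980, 1932 and 3132 in TetLowReg and 3690, 22 and 6592 in TetLowProg. Rheb, the GTPase that activates mTORC1, was high in all 5 broader libraries, from 4263 counts in TetLowProg 9 to 15755 in TetLowProg 12 with 11565 in TetHighProg 5, and at 1 count or none in the sparse ones.

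Of the other autophagosome factors, Vmp1, a membrane protein of autophagosome formation, was detected in 8 libraries, from 1093 counts in TetHighProg 1 to 33902 in TetLowProg 10, and was at 0 in TetHighProg 2. Tecpr1, which tethers autophagosomes to lysosomes, had 0, 1 and 0 counts in TetHighProg, 0, 1206 and 2158 in TetLowReg and 1037, 3099 and 7933 in TetLowProg. All TetLowProg libraries exceeded all TetHighProg ones for this gene. They did so for 8 of the 66 list genes tested (12.1%, with 0 below), beside 7.17% of all genes separate in either direction. For Atp6v1b2 the separation rested on 1 read in TetLowProg 10 against 1 in TetHighProg 1. Bnip3l and Calcoco1 had under 10 counts in TetLowProg 10. Vamp8, a SNARE protein of fusion with the lysosome, was at 4490 counts in TetHighProg 5, 2046 and 1570 in TetLowReg 7 and 8, 1578 and 4149 in TetLowProg 9 and 12, and 0 in the sparse libraries.

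Of the selective receptors and their kinase, Fkbp8, a receptor on mitochondria, had 2964 counts in TetHighProg 5, 5027 and 435 in TetLowReg 7 and 8, and 9812 and 2132 in TetLowProg 9 and 12. Retreg1, a receptor for the endoplasmic reticulum, had 1776 and 2676 counts in TetLowReg 7 and 8 and 1551 and 8637 in TetLowProg 9 and 12. Tbk1, which phosphorylates cargo receptors, had 4 and 2089 counts in TetLowReg 7 and 8 and 6794 and 5740 in TetLowProg 9 and 12. Retreg1 and Tbk1 were at 0 in all TetHighProg libraries, and all 3 genes were at 0 in the sparse ones.

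Of the lysosomal genes, Atp6v1b2, a subunit of the proton pump, had 2374 and 7074 counts in TetLowReg 7 and 8, 2610 and 42152 in TetLowProg 9 and 12, and 1 or none elsewhere. Npc2, a carrier of cholesterol, had 9067, 0 and 7080 counts in TetHighProg, 0, 37 and 1156 in TetLowReg and 15464, 1 and 3096 in TetLowProg, so that TetHighProg 1 and 5 lay above all of TetLowReg. Ctsh, a protease, was found at 17178 counts in TetLowReg 7, 6132 in TetLowReg 8 and 8685 in TetLowProg 12, the libraries with B cell markers, and at 1 count or none in the rest. The part of B cells in that level was not tested.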
